A study of Caenorhabditis elegans with 24 samples.

Results

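The genes described here encode proteins of the thick and thin filaments of muscle in *Caenorhabditis elegans*. They are 10 genes chosen by name: *unc-54*, *myo-1*, *myo-2*, *myo-3*, *unc-15*, *lev-11*, *unc-27*, *mup-2*, *mlc-1* and *act-4*. All 10 were matched by their WormBase name to a gene identifier in both tables of expression values, out of 14652 genes listed in either table and 12512 listed in both. The rule uses names alone, although the list was drawn up with earlier results of these data known, and all 10 passed the filter on low values in both tables.

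The study sequenced polyA RNA in 24 libraries, 3 in each of 8 groups, to ask how insulin/IGF-1 signalling shapes protein quality control in the germline. All animals carried *hsf-1::degron::gfp* (*ljt3*) and the transgene ieSi38, in which the *sun-1* promoter drives TIR1::mRuby. TIR1 is a plant F-box protein that lets auxin trigger the degradation of a degron-tagged protein, here HSF-1, the heat shock transcription factor, and the *sun-1* promoter restricts it to the germline, so that muscle was not itself the target of the depletion. In the first 4 groups, whole animals with the reduction-of-function allele *daf-2(e1370)* of the insulin/IGF-1 receptor were kept on 1 mM auxin (depletion) or on 0.25% ethanol (control). The exposure lasted 16 h from the young adult stage or 88 h from egg lay, until the worms were gravid. In the other 4 groups, for which neither agent is recorded, enriched germline nuclei and whole worms were taken from young adults, with *daf-2(e1370)* or without it. The strain without it, called wild type here, lists *unc-119(ed3)* in its genotype, with ieSi38 carrying a *Cbr-unc-119(+)* copy. Values are CPM, read counts relative to a library size that the authors' normalization adjusted for each library, on a log2 scale, as deposited. A fold change is a difference of these log2 values between group means, tested with limma, and a gene was called changed at an adjusted p under 0.05 over all genes of the table. The study calls its replicates biological, but the labels do not say how they were grown or whether they shared a culture, and p-values measure the spread between these libraries.

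In muscle, myosin motors on thick filaments pull on thin filaments made of actin, and tropomyosin and the troponin complex on the thin filament let calcium switch the pull on and off. Body wall muscle moves the worm and uses the myosin heavy chains UNC-54 and MYO-3, whereas the pharynx, the feeding organ, uses MYO-1 and MYO-2. Germ cells do not build sarcomeres, so transcripts of these genes also serve as a marker of somatic RNA in preparations of germline nuclei. In bulk RNA, less RNA from muscle and more RNA from other tissues cannot be told apart.

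The number of reads in listed genes was inferred from the step between neighbouring low values. It was 20.9 to 38.04 M per library for the depletion study, 13.9 to 19.3 M for nuclei and 21.9 to 28.8 M for the whole worms sequenced beside them. The deposited scaling treated nuclei and worms very differently. Unlogged values summed to 1236882 to 2688300 in nuclei libraries and to 424276 to 645863 in worm libraries, so a gene with the same share of reads in both has a higher CPM in nuclei. The differences of the 10 genes and the counts of the gene lists between nuclei and worms are therefore also given with every library scaled to its own sum, an alternative chosen after the data were seen. The second *daf-2* nuclei library had the lowest sum of the nuclei libraries. The nuclei were checked against markers of the germline. Of 17 germ cell genes, 3 were higher and 4 lower in wild-type nuclei than in worms (median log2 difference 0.04), and 4 were higher and 7 lower in *daf-2* nuclei (median -0.12). Of 11 intestine genes, 8 and 11 were lower (medians -2.39 and -3.17), and of 7 sperm genes, 5 and 5 were higher (medians 1.48 and 0.98). Of 12 protein genes of the mitochondrial genome, 3 and 8 were higher (medians 0.93 and 1.95). Of all genes, 19.4% and 32% were lower and 15.9% and 21.3% higher (medians -0.34 and -0.63). With library sums, 14 of the 17 germ cell genes were lower in each genotype and 0 higher (medians -1.89 and -2.30), and all 11 intestine genes were lower in each (medians -4.32 and -5.35). On that scale 8596 and 9503 of all 13613 genes were lower (medians of all genes -2.27 and -2.81). The sperm genes turned to 0 and 3 lower and 0 higher (medians -0.45 and -1.20), and the mitochondrial genes to 4 and 3 lower and 0 and 3 higher (medians -1.003 and -0.22), so that the direction for these lists depends on the scaling.

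The 10 genes lie on chromosomes I (4 genes), V (1 gene) and X (5 genes) of the WBcel235 assembly. The thick filament genes are *unc-54* (WBGene00006789, I 14855901 to 14863482, minus strand), *myo-1* (WBGene00002348, I 7258946 to 7267057, minus), *myo-2* (WBGene00003514, X 12468061 to 12475348, plus), *myo-3* (WBGene00003515, V 12226817 to 12234343, minus), *unc-15* (WBGene00006754, I 7376604 to 7383197, minus) and *mlc-1* (WBGene00003369, X 17459210 to 17460778, plus). The thin filament genes are *act-4* (WBGene00000066, X 4960621 to 4964413, plus), *lev-11* (WBGene00002978, I 14621169 to 14631094, minus), *unc-27* (WBGene00006764, X 8789456 to 8790621, plus) and *mup-2* (WBGene00003495, X 6408471 to 6410227, minus). Exons of *mlc-1* and *act-4* each share 1 base with a gene on the opposite strand, and exons of the other 8 overlap no other annotated gene. The genes differ in how much of their length is intron. Introns make up 76.0% of *lev-11*, 57.8% of *act-4* and 48.1% of *unc-15*, but 13.1% to 26.4% of the other 7 (26.4% in *mlc-1*). Actin genes *act-1* to *act-4*, and *mlc-1* and *mlc-2*, are near-identical copies whose reads the counting could share, so values of *act-4* and *mlc-1* are uncertain to that extent.

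Per kilobase of exon, the filament genes kept a similar order of CPM in all 6 groups of whole worms. *unc-27*, which encodes troponin I of body wall muscle, was highest in each, from 340 ± 62.8 CPM per kb in the 16 h depletion group to 696 ± 128 in the 88 h controls (mean ± SD, n = 3). *act-4*, an actin, and *mlc-1*, a myosin regulatory light chain, followed in either order, and their ranges overlapped in all 6 groups. *lev-11*, which encodes tropomyosin, and *mup-2*, which encodes troponin T, came next, again with overlapping ranges in all 6. *unc-15*, which encodes paramyosin of the thick filament core, and *unc-54*, the major body wall myosin heavy chain, took the sixth and seventh places. Their ranges overlapped except in *daf-2* worms of the nuclei study (50.2 to 74.7 against 29.4 to 44.0 CPM per kb). *myo-3*, the myosin at the centre of the body wall thick filament, had 8.98 to 34.4 CPM per kb as group means. The pharyngeal myosins *myo-1* and *myo-2* were last in every group, below *myo-3* without overlap and overlapping each other, with group means of 0.296 to 2.63 CPM per kb.

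In germline nuclei the order was different. *lev-11* was highest, with 225 ± 24.02 CPM per kb in wild-type nuclei and 275 ± 30.2 in *daf-2* nuclei, and did not overlap *act-4*, which was second (128 ± 25.02 and 141 ± 14.3 CPM per kb). *unc-27* followed, with 80.9 ± 9.59 and 76.0 ± 0.894 CPM per kb, and did not overlap *act-4* either. *mlc-1*, *mup-2*, *unc-15* and *unc-54* followed in that order in both genotypes. *myo-2* stood above *myo-3* and *myo-1* in both, although the ranges of *myo-2* and *myo-3* overlapped, as did those of *myo-3* and *myo-1*.

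**Figure D1:**
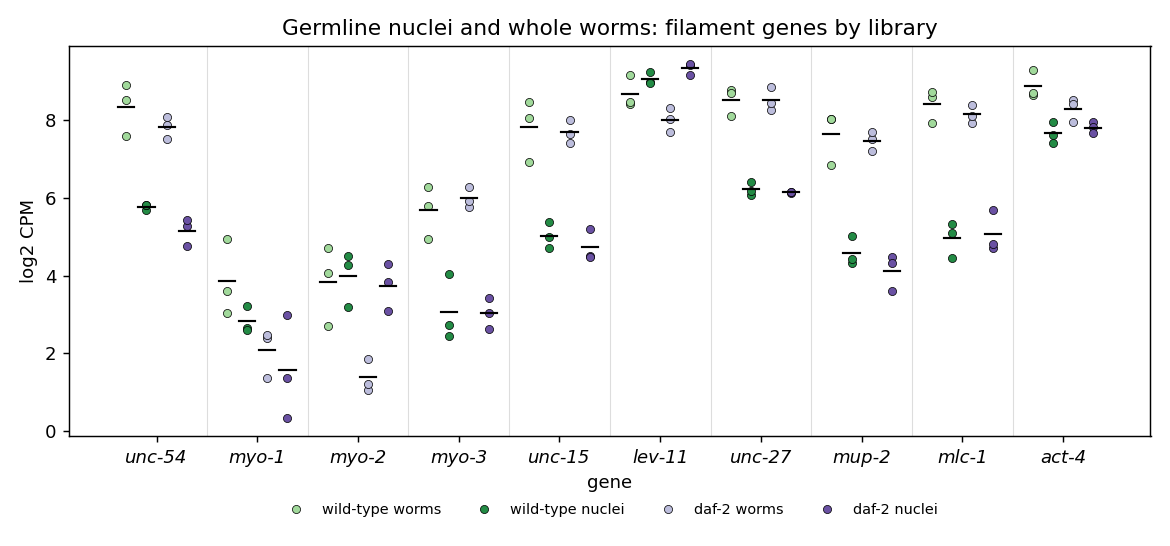
Deposited log2 CPM (y axis) of the 10 filament genes (x axis) in wild-type worms, wild-type nuclei, *daf-2(e1370)* worms and *daf-2(e1370)* nuclei. Each point is 1 library and each short line the mean of 3. Nuclei lie below worms without overlap in both genotypes for *unc-54*, *myo-3*, *unc-15*, *unc-27*, *mup-2* and *mlc-1*, whereas *lev-11* lies above worms in *daf-2* animals on this scale but has a difference of -0.84 with library sums.

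Most filament transcripts were much lower in germline nuclei than in whole worms of the same genotype. In the wild type, 7 of the 10 were lower and 0 higher, against 19.4% of all genes tested that were lower and 15.9% that were higher. In *daf-2(e1370)*, 6 were lower and 2 higher (32% and 21.3% of all genes). The 10 genes had a median log2 fold change of -2.44 in wild-type and -2.52 in *daf-2(e1370)* animals, where the medians of all genes were -0.34 and -0.63. With libraries scaled to their own sums, 10 were lower in wild-type and 8 in *daf-2(e1370)* nuclei and 0 higher in either, with medians of -4.37 and -4.70 (all genes -2.27 and -2.81). On that scale 8596 and 9503 of 13613 genes were lower. The counts on the deposited scale stayed at 7 and 0, and at 6 and 2, with any 1 library left out.

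*unc-54* had 194.4, 367.5 and 480.3 CPM in wild-type worms and 51.5, 56.8 and 56.2 CPM in wild-type nuclei. In *daf-2(e1370)* it had 234, 182 and 273 CPM in worms and 39.0, 42.9 and 27.35 CPM in nuclei. All nuclei libraries lay below all worm libraries. The log2 fold change was -2.57 ± 0.30 (SE, limma adjusted p = 5.17e-05) in the wild type, or 5.93-fold lower, and -2.67 ± 0.30 (adjusted p = 9.07e-06) in *daf-2(e1370)*, or 6.34-fold lower. The nuclei values rest on 174 to 587 reads per library and the worm values on 6613 to 18654. The other thick filament genes of body wall muscle fell to a similar degree. For *myo-3* the log2 fold changes were -2.61 ± 0.43 (limma adjusted p = 0.000423) and -2.97 ± 0.43 (adjusted p = 6.99e-05), for *unc-15* they were -2.81 ± 0.36 (adjusted p = 7.73e-05) and -2.97 ± 0.36 (adjusted p = 1.36e-05), and for *mlc-1* they were -3.46 ± 0.32 (adjusted p = 2.59e-05) and -3.08 ± 0.32 (adjusted p = 3.71e-06), the wild type given first each time. For each of them the nuclei and the worms did not overlap, with 5.42 to 16.4 CPM in nuclei and 30.95 to 77.98 CPM in worms for *myo-3*, the least abundant.

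On the thin filament the genes did not move together. The troponin genes described here, *mup-2* and *unc-27*, fell as the thick filament genes did. *mup-2* had 116, 262 and 265 CPM in wild-type worms and 20.0, 32.3 and 21.4 CPM in wild-type nuclei, and 183, 147 and 208 CPM in *daf-2* worms against 22.1, 20.0 and 12.1 CPM in *daf-2* nuclei. The groups did not overlap, and the log2 fold changes were -3.06 ± 0.34 (limma adjusted p = 3.66e-05) and -3.34 ± 0.34 (adjusted p = 3.34e-06). For *unc-27* they were -2.30 ± 0.23 (limma adjusted p = 2.59e-05) and -2.38 ± 0.23 (adjusted p = 2.29e-06), with 67.96 to 85.37 CPM in the 6 nuclei libraries and 279 to 466 in the worms. *act-4* fell less. It had 403, 416 and 627 CPM in wild-type worms against 249, 170 and 198 CPM in nuclei, without overlap (log2 fold change -1.22 ± 0.25, limma adjusted p = 0.00211). In *daf-2(e1370)* it had 370, 248 and 345 CPM in worms and 248, 226 and 203 CPM in nuclei, which touched, and the difference was -0.49 ± 0.25 (adjusted p = 0.113), but -1.72 under quantile scaling (adjusted p = 4.20e-05) and -2.67 with library sums (adjusted p = 1.11e-05).

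*lev-11* stood apart from the other body wall genes. It had 343, 358 and 572 CPM in wild-type worms and 512, 497 and 603 CPM in wild-type nuclei, where the groups overlapped. The log2 fold change was 0.38 ± 0.26 (limma adjusted p = 0.276), which turned to -0.81 under quantile scaling (adjusted p = 0.0377) and -1.55 with library sums (adjusted p = 0.00223). In *daf-2(e1370)* it had 317, 208 and 264 CPM in worms and 574, 690 and 706 CPM in nuclei, without overlap. This was a rise of 1.33 ± 0.26 on the deposited scale (adjusted p = 0.000709), or 2.52-fold, but -0.15 under quantile scaling (adjusted p = 0.689) and -0.84 with library sums (adjusted p = 0.0527). The direction for *lev-11* therefore depends on the scaling. A ratio of CPM within a library cancels any factor applied to a whole library, though not quantile scaling. The difference of *lev-11* exceeded that of *unc-54* by 2.94 (wild type) and 4.00 (*daf-2*) with such factors, and by 2.33 and 3.28 under quantile scaling (log2 scale). The ratio of *lev-11* to *unc-54* was 0.975 to 1.76 in wild-type worms and 8.75 to 10.7 in wild-type nuclei, and 0.967 to 1.35 in *daf-2* worms and 14.7 to 25.8 in *daf-2* nuclei (lowest to highest of 3 libraries). The ratio of *act-4* to *unc-54* was 1.13 to 2.07 and 3.00 to 4.84 in the wild type, and 1.26 to 1.58 and 5.28 to 7.41 in *daf-2(e1370)*. In nuclei *lev-11* alone gave 51.8% to 64.3% of the summed CPM of the 10 genes, against 12.8% to 19.4% in worms.

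The pharyngeal myosins differed from the body wall myosins as well. *myo-2* had 16.6, 6.53 and 26.1 CPM in wild-type worms and 9.15, 22.8 and 19.5 CPM in wild-type nuclei, and the groups overlapped. The log2 fold change was 0.17 ± 0.54 (limma adjusted p = 0.828), but -0.39 without wild-type worm replicate 2 and -1.76 with library sums (adjusted p = 0.0223). In *daf-2(e1370)*, 2.07, 2.32 and 3.63 CPM in worms stood against 8.54, 19.6 and 14.2 CPM in nuclei, without overlap, a rise of 2.36 ± 0.54 on the deposited scale (adjusted p = 0.00235) and 0.19 with library sums (adjusted p = 0.787). *myo-1* gave -1.04 ± 0.67 in the wild type (adjusted p = 0.248) and -0.52 ± 0.67 in *daf-2(e1370)* (adjusted p = 0.535), with overlap in both, but -2.97 (adjusted p = 0.00246) and -2.69 (adjusted p = 0.00355) with library sums. The *myo-1* value in nuclei rests on 9 to 97 reads per library and that of *myo-2* on 61 to 220. The ratio of *myo-2* to *unc-54* within a library was 0.0178 to 0.0856 in wild-type worms and 0.178 to 0.401 in wild-type nuclei, and 0.00884 to 0.0133 in *daf-2* worms and 0.219 to 0.518 in *daf-2* nuclei.

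**Figure D2:**
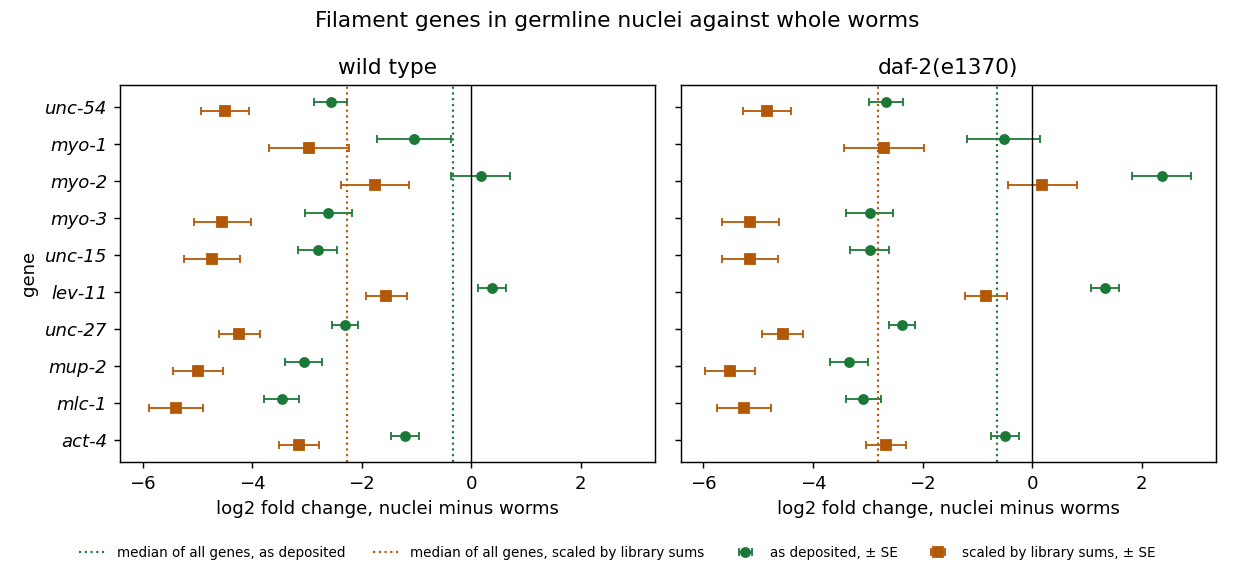
Log2 fold change of nuclei minus worms (x axis, ± SE of the limma fit) for the 10 filament genes (y axis) in the wild type (left) and *daf-2(e1370)* (right), as deposited (circles) and with each library scaled to its own sum (squares). Dotted lines mark the median of all genes on each scale. *lev-11* and *myo-2* lie to the right of that median on both scales in both genotypes, and the sign of *lev-11* turns from positive to negative with library sums in both (0.38 to -1.55 and 1.33 to -0.84).

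As shares of the reads in listed genes, the 10 genes together took 0.273% to 0.579% in wild-type worms and 0.0348% to 0.0656% in wild-type nuclei. In *daf-2(e1370)* they took 0.363% to 0.495% in worms and 0.0409% to 0.0947% in nuclei. The highest nuclei share was that of *daf-2* nuclei replicate 2. Without *lev-11*, the shares in nuclei were 0.0163% to 0.0286% and 0.0163% to 0.0390%. None of the 10 was at 0 reads in any nuclei library.

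Other genes of the contractile apparatus moved in both directions on the deposited scale. Among 9 further thick filament genes, 3 were lower and 1 higher in nuclei in each genotype. The lower ones were *mlc-2* and *mlc-3*, myosin light chains, and *unc-22*, the giant kinase twitchin. The higher one was *ttn-1*, a titin-like giant protein, which had 995 ± 526 CPM in wild-type worms and 4100 ± 856 CPM in nuclei (log2 fold change 2.21 ± 0.42, limma adjusted p = 0.00112), and 166 ± 35.0 and 3809 ± 488 CPM in *daf-2(e1370)* (4.53 ± 0.42, adjusted p = 1.40e-06). With library sums its differences were 0.28 and 2.36. Of 16 further thin filament genes, 8 were lower in each genotype and 2 and 3 were higher. The lower ones included the actins *act-1*, *act-2* and *act-3* and the troponin T gene *tnt-2*. *tnt-3*, another troponin T gene, had 281 ± 139 CPM in wild-type worms and 1393 ± 128 CPM in nuclei, and 44.3 ± 5.66 and 1160 ± 266 CPM in *daf-2(e1370)*, and stayed positive with library sums (0.52 and 2.52). *tmd-2*, a tropomodulin, also rose (1.80 and 2.81), but had -0.13 in the wild type with library sums. *tni-3*, a troponin I gene, was higher in *daf-2* nuclei alone (0.97 ± 0.27, limma adjusted p = 0.0078), but had -1.21 there with library sums. Of 14 dense body and M-line genes, which anchor the filaments, 8 and 10 were lower and 1 was higher in each genotype. With library sums, 7 and 8 of the thick filament, 14 and 13 of the thin filament and all 14 of the dense body and M-line genes were lower, and higher were 1 thick filament and 1 thin filament gene in *daf-2(e1370)*. Of all 13613 genes, 8596 and 9503 were lower on that scale and 399 and 789 higher. Of 15 genes of excitation and calcium, 2 and 4 were lower and 2 and 4 higher, against 19.4% and 32% of all genes lower and 15.9% and 21.3% higher, and with library sums 10 were lower and 0 higher in each genotype. *csq-1*, the calcium store protein calsequestrin, was among the lower ones (-3.69 ± 0.47 and -4.82 ± 0.47, limma adjusted p = 7.82e-05 for wild-type and 2.18e-06 for *daf-2* nuclei). *hlh-1*, the MyoD transcription factor of body wall muscle, was lower in wild-type nuclei (-3.22 ± 1.17, limma adjusted p = 0.0449) and not called in *daf-2* nuclei (-2.37 ± 1.17, adjusted p = 0.1001), whereas with library sums it was lower in both (-5.15 and -4.55).

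Among the 10 genes, worms of the 2 genotypes differed in the 2 pharyngeal myosins but, by this test, in none of the other 8. Genes of other muscle lists were lower as well, as given below. In *daf-2(e1370)* worms 2 of the 10 genes were lower than in wild-type worms and 0 higher, against 11.2% and 6.81% of all genes. *myo-2* had 16.6, 6.53 and 26.1 CPM in wild-type worms and 2.07, 2.32 and 3.63 CPM in *daf-2* worms. The groups did not overlap, and the log2 fold change was -2.45 ± 0.49 (limma adjusted p = 0.00914), or 5.47-fold lower. *myo-1* had 12.2, 8.16 and 30.7 CPM in wild-type worms and 2.58, 5.25 and 5.51 CPM in *daf-2* worms, again without overlap (-1.79 ± 0.49, adjusted p = 0.0322). The other 8 had log2 fold changes from -0.67 (*lev-11*, SE 0.31, adjusted p = 0.141) to 0.31 (*myo-3*, SE 0.34, adjusted p = 0.529), and of them *lev-11* and *act-4* did not overlap between genotypes. Both calls rest on few libraries. Without wild-type worm replicate 1 neither gene passed (adjusted p = 0.0913 for *myo-1* and adjusted p = 0.0504 for *myo-2*), and without wild-type worm replicate 3 or any 1 of the *daf-2* worm libraries only *myo-2* did. Wild-type worm replicate 1 was below its group mean for all 8 body wall or shared genes (median deviation -0.61), and replicate 3 was above it for all 8. Marker levels of other tissues also differed between these worms. Of 11 intestine genes, 6 were higher in *daf-2* worms (median log2 difference 1.74), with summed levels of 3417 to 7028 CPM against 1419 to 2777 CPM. Of 10 hypodermis genes 1 was lower (median -2.43), although their summed level, carried by the abundant ones, was 1229 to 1465 CPM in *daf-2* worms against 781 to 1016 CPM in the wild type. Of 12 protein genes of the mitochondrial genome 3 were lower (median -0.88), of 7 sperm genes 2 were lower (median -0.74), and of 17 germ cell genes 1 was higher (median 0.55). Their part in the result was not tested. Among the other muscle lists, 4 of 16 thin filament genes (*tni-1*, *tnt-3*, *tnt-4* and *tmd-2*), 1 of 9 thick filament genes (*ttn-1*, -2.41 ± 0.44, limma adjusted p = 0.00609), and *pha-4*, a transcription factor of the pharynx (-1.69 ± 0.48, adjusted p = 0.0346), were lower in *daf-2* worms, and no gene of those 3 lists was higher. Of 15 genes of excitation and calcium 2 were lower (*slo-1* and *unc-49*) and 1 higher (*unc-38*), and of 14 dense body and M-line genes 0 were called.

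Between *daf-2* and wild-type nuclei, 0 of the 10 genes changed, where 3.85% of all genes did. *unc-54*, whose libraries did not overlap, was the 1 filament gene with an unadjusted p under 0.05 (log2 fold change -0.62 ± 0.21, limma adjusted p = 0.171), as had 2847 of all genes. *lev-11* and *act-4* had 0.29 ± 0.18 and 0.15 ± 0.19 (limma adjusted p = 0.389 for *lev-11* and 0.691 for *act-4*). The difference between the effect of *daf-2(e1370)* in nuclei and in worms was called for 0 of the 10 and for 0.103% of all genes (1666 at an unadjusted p under 0.05). *myo-2* (2.19 ± 0.77, limma adjusted p = 0.236) and *lev-11* (0.96 ± 0.37, adjusted p = 0.295) had unadjusted p-values of 0.0125 and 0.0201, and the other 8 were above 0.05.

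Filament transcripts were higher in the 88 h controls than in the 16 h controls. Of the 10 genes, 7 were higher and 0 lower, against 7.61% and 2.29% of all genes. The 2 control groups differ in when the worms were put on ethanol and in how long they stayed on it. The age of the 16 h worms at harvest is not given, so the groups may also differ in age. The study's methods also give a separate synchronization, by egg laying, for treatment from egg lay. Worms of the 16 h groups were picked onto their plates as young adults. None of these can be told apart. The 16 h controls had 237.3, 462.5 and 377.8 CPM of *unc-54*, and the 88 h controls 1239, 1342 and 900.3 CPM. The groups did not overlap, and the log2 fold change was 1.72 ± 0.48 (limma adjusted p = 0.0468), or 3.30-fold. *unc-15* (1.31 ± 0.33, adjusted p = 0.0392), *mup-2* (1.19 ± 0.23, adjusted p = 0.0213) and *act-4* (1.06 ± 0.20, adjusted p = 0.0204) rose by 2.09- to 2.48-fold. *lev-11* (0.85 ± 0.22, adjusted p = 0.0406), *mlc-1* (0.85 ± 0.21, adjusted p = 0.0372) and *unc-27* (0.74 ± 0.20, adjusted p = 0.0473) rose by 1.67- to 1.80-fold. For *myo-3* the 16 h controls lay at 71.9, 87.9 and 79.1 CPM, and those of 88 h at 215, 239 and 176 CPM, also without overlap, but its adjusted p was 0.0515 (1.39 ± 0.41). The pharyngeal genes were not called. The levels of *myo-1* were 5.90, 3.77 and 1.96 CPM in the 16 h controls, which those of 88 h spanned with 9.44, 2.14 and 1.80 CPM (-0.09 ± 1.06, limma adjusted p = 0.965), and *myo-2* gave -0.14 ± 1.00 (adjusted p = 0.938). These calls are close to the threshold. In a fit of the 2 control groups alone, 0 genes of 12634 passed, the 10 included, and leaving out 1 control library left 0 to 6 of the 7, with 0 without 16 h replicate 2, 16 h replicate 3 or 88 h replicate 1.

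Of the other muscle lists, those of the thin filament and of the dense body and M-line held more genes that were higher in the 88 h controls than the 7.61% of all genes. Of 16 further thin filament genes 9 were higher, among them *act-1*, *act-3*, the troponin I genes *tni-1* and *tni-3* and the calponin-like genes *unc-87* and *clik-1*. Of 14 dense body and M-line genes 10 were higher, including *deb-1* (vinculin), *atn-1* (alpha-actinin) and *unc-52* (perlecan, 1.30 ± 0.24, limma adjusted p = 0.0205). Of 9 further thick filament genes 1 was higher (*mlc-3*), of 14 genes of excitation and calcium 0 were, and of 3 muscle transcription factors 0 were (median -0.26, all 3 negative). No gene of these lists was lower. Of 5 sperm genes, 3 were higher at 88 h, with summed levels of 11.6 to 69.3 CPM at 16 h and 108 to 225 CPM at 88 h. Of 10 hypodermis genes, 4 were higher (2072 to 2890 CPM against 3485 to 4245 CPM), of 11 intestine genes 3 were higher (37070 to 92523 CPM against 45175 to 64378 CPM), and of 17 germ cell genes 1 was lower. The part of other tissues in the result was not tested.

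**Figure D3:**
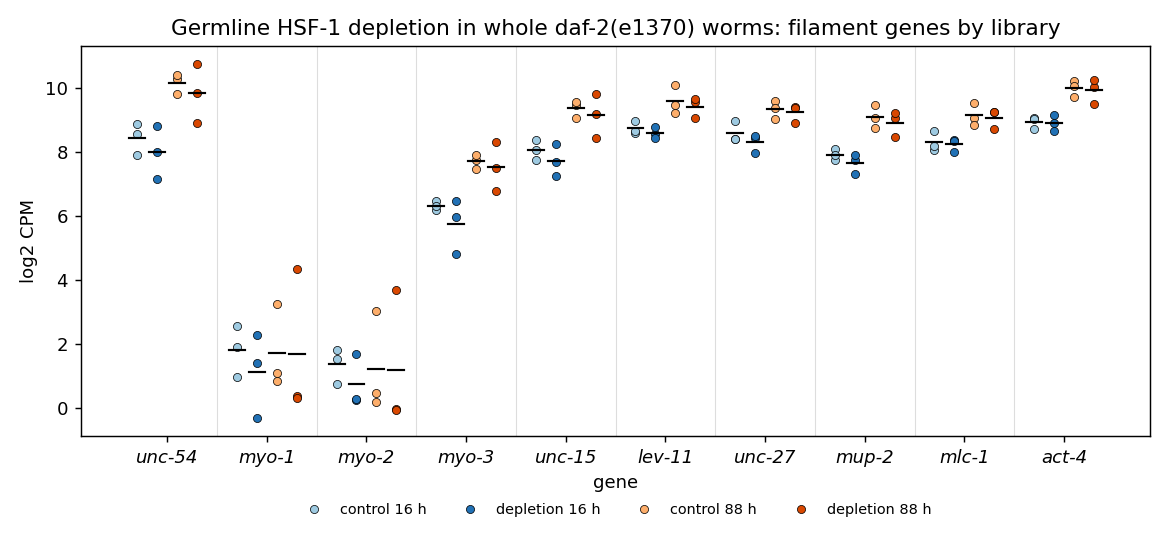
Deposited log2 CPM (y axis) of the 10 filament genes (x axis) in whole *daf-2(e1370)* worms on ethanol (control) or auxin (depletion) for 16 h or 88 h. Each point is 1 library and each short line the mean of 3. For the 8 genes other than *myo-1* and *myo-2* the 3 controls of 88 h lie above the 3 controls of 16 h, and auxin and ethanol libraries of the same time overlap for all 10.

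Depletion of HSF-1 from the germline changed none of the 10 filament genes by this test. At 16 h, 0 of the 10 were called (10 of 12634 genes, 0.0792%), with a median log2 fold change of -0.31, and at 88 h also 0 (13 genes, 0.103%), with a median of -0.14. The medians of all genes were 0.01 and -0.02. At an unadjusted p under 0.05 there were 560 and 752 genes, and the lowest unadjusted p of a filament gene was 0.173 (*unc-27* at 16 h). *unc-54* had 256.5, 142.6 and 446.8 CPM with auxin at 16 h and 903, 1722 and 473 CPM with auxin at 88 h. At each time these overlapped the ethanol values, and the log2 fold changes were -0.45 ± 0.48 and -0.34 ± 0.48 (limma adjusted p = 1.00 at 16 h and 0.992 at 88 h). The change was negative for all 10 genes at both times, from -0.03 (*act-4*) to -0.69 (*myo-1*) at 16 h and from -0.03 (*myo-2*) to -0.34 (*unc-54*) at 88 h. The 8 genes other than *myo-1* and *myo-2* deviated together in part of the libraries, though they were split in the 16 h controls. These changes are therefore not separate observations. The sign at 88 h rests on single libraries. Without depletion replicate 3, *unc-15*, *mup-2* and *act-4* turned positive (0.14, 0.044 and 0.14), as *lev-11* did without control replicate 1 (0.076). Each of the 10 was positive in some fit with 1 library left out, *unc-54* at up to 0.12 and *myo-2* at up to 0.88. At 16 h, *act-4*, *mlc-1* and *myo-1* also turned positive in such fits (up to 0.089, 0.11 and 0.032). The difference between the effects at 88 h and 16 h was called for 0 of the 10 (and 0 of all genes, with 241 at an unadjusted p under 0.05). It had a median of 0.11. *hsf-1* mRNA itself had log2 fold changes of 0.06 and 0.15, which do not measure the loss of the protein.

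**Figure D4:**
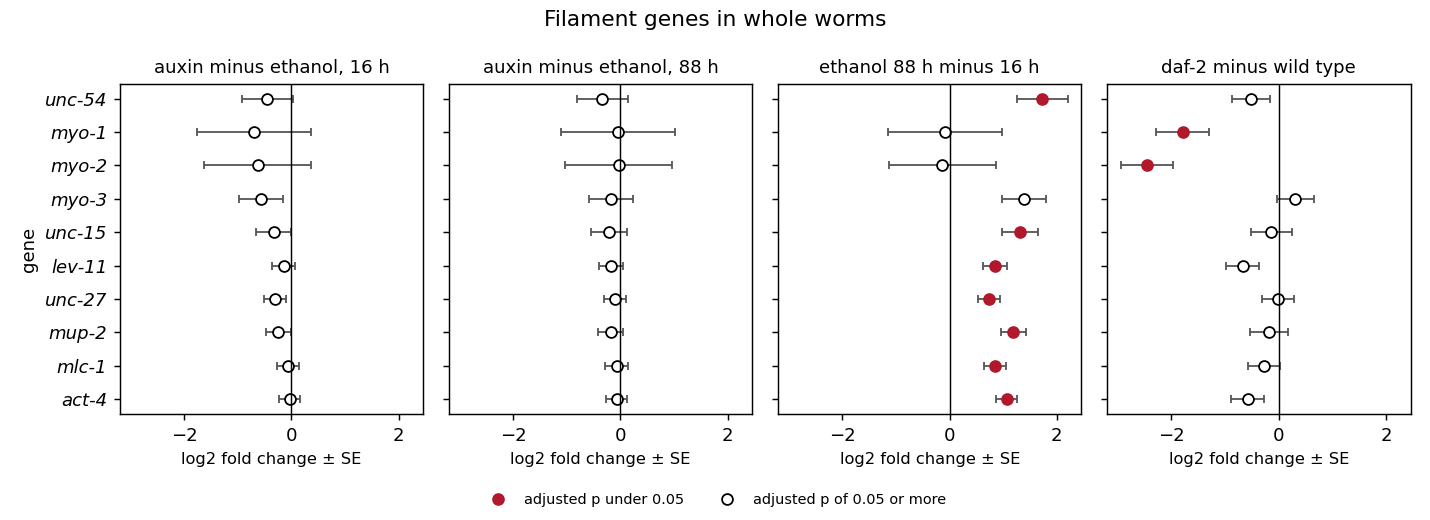
Log2 fold change (x axis, ± SE of the limma fit) of the 10 filament genes (y axis) in 4 comparisons of whole worms. From left to right they are auxin against ethanol at 16 h, the same at 88 h, the 88 h against the 16 h ethanol controls, and *daf-2(e1370)* against wild type. Filled points passed an adjusted p under 0.05, as 0, 0, 7 and 2 genes did.

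The spread between replicates was wide for these genes in the whole *daf-2(e1370)* worms, and 8 of them deviated together in part of the libraries. The SD within groups was 0.69 on the log2 scale for *unc-54*, 0.59 for *myo-3* and 0.47 for *unc-15*, and 0.28 to 0.32 for *lev-11*, *unc-27*, *mup-2*, *mlc-1* and *act-4*. For genes of a similar level the median SD was 0.11 to 0.14, and 89.3% to 99.3% of them had a smaller SD than the member. For *myo-1* and *myo-2* it was 1.53 and 1.42, where the median of genes of a similar level was 0.35 and 0.39. In 3 of the 12 libraries (16 h depletion replicate 3, 88 h control replicate 1 and 88 h depletion replicate 2) all 8 body wall or shared genes were above their group means, and in 3 (16 h depletion replicate 2, 88 h control replicate 3 and 88 h depletion replicate 3) all 8 were below. In the 16 h controls the 8 were split, with 4, 4 and 3 above their group means in replicates 1, 2 and 3. In replicate 1 *unc-54*, *myo-3*, *unc-15* and *act-4* were below and *lev-11*, *unc-27*, *mup-2* and *mlc-1* above. The reverse held in replicate 2. In 16 h depletion replicate 1 and 88 h control replicate 2, 5 were above, and in 88 h depletion replicate 1, 7 were. *unc-54* was at 0.82 and -0.83 around its mean in 16 h depletion replicates 3 and 2, and at 0.93 and -0.93 in 88 h depletion replicates 2 and 3. *myo-1* and *myo-2* had 20.1 and 12.9 CPM in 88 h depletion replicate 2, and at most 1.31 and 0.98 CPM in the other replicates of that group. They had 9.44 and 8.22 CPM in 88 h control replicate 1 against at most 2.14 and 1.37 in the other replicates. In the study of nuclei the SD of the 10 genes was 0.25 to 0.90, where the median SD of genes of a similar level was 0.35 to 0.67. The SD of 7 of the 10 exceeded that of 65.9% to 87.7% of such genes, and for *lev-11*, *unc-27* and *act-4* the share was 10.2% to 16.6%.

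**Figure D5:**
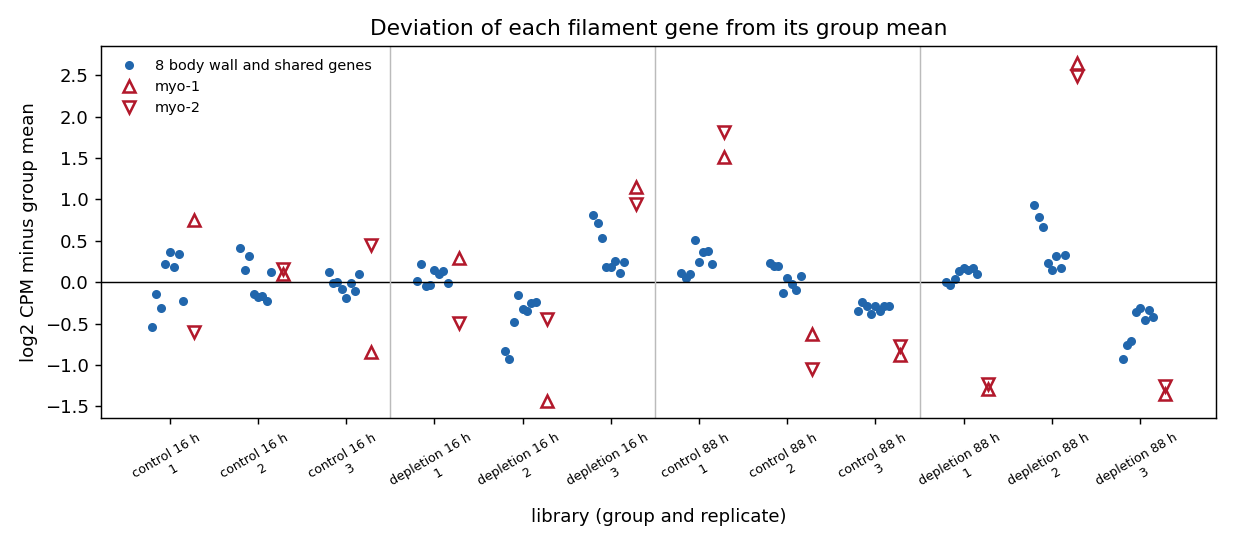
Deviation of each filament gene from the mean of its group (y axis, log2 CPM) in the 12 libraries of whole *daf-2(e1370)* worms (x axis). Filled circles are the 8 body wall or shared genes and open triangles *myo-1* and *myo-2*. The circles lie all above 0 in 3 libraries and all below 0 in 3 others, and the triangles are highest in 88 h depletion replicate 2 (2.65 and 2.49).

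The genes whose pattern was most like that of the filament genes were sought among all genes of each table. Likeness was measured as the Pearson correlation with the median of the 10 genes, each centred on its mean, over 12 libraries, as a description over libraries that share their depth and scaling. In whole *daf-2(e1370)* worms the 5 closest genes outside the 10 were *T12D8.9* (r = 0.989), *cpna-1* (0.988), *F46H5.3* (0.981), *K09A9.6* (0.979) and *deb-1* (0.978). CPNA-1 is a copine-domain protein of muscle attachment structures. In the study of nuclei they were *unc-115* (0.982), *T04C12.7* (0.979), *C34D1.4* (0.979), *tnt-2* (0.978) and *K11G9.5* (0.978). Each of the 10 takes part in that median, so their own r is in part set by the method and is not comparable with that of other genes. Of the 10 themselves, 8 had r from 0.946 to 0.981 with that median in whole *daf-2* worms, and *myo-1* and *myo-2* had 0.524 and 0.456. In the study of nuclei *lev-11* and *myo-2* had r of -0.664 and -0.385, *act-4* had 0.862, *myo-1* had 0.454, and the other 6 had 0.953 to 0.994.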

How the data were processed

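PolyA RNA was read as directional libraries. Per the labels and the study's methods, the authors aligned reads with STAR to WBcel235 (ce11), assigned them to genes with featureCounts, a read with several places or genes being split between them, and normalized with edgeR. The versions of featureCounts and edgeR and the strand setting of the counting are not given in the sources used here. The deposited values are log2 CPM in 2 tables, normalized separately, each of 12 libraries, and tests were made only within a table. The deposited tables of the authors' own comparisons (fold changes, test statistics, p-values and false discovery rates) were not used.

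A gene entered the tests if it reached 1 CPM in 25% or more of a table's libraries, which left 12634 of 12958 genes for the depletion study and 13613 of 14206 for nuclei and worms. limma 3.58.1 in R 4.3.3 (lmFit, and eBayes with trend) was fitted on the log2 values, with p-values adjusted by Benjamini and Hochberg over all kept genes. The fits took the 12 libraries of a table, except that the comparisons of genotypes used the 6 worm or the 6 nuclei libraries alone. There were 9 comparisons, and the steps were tested on simulated data. Because a small count is added before the logarithm, fold changes of low genes are understated. Depth was inferred from the step between neighbours among the 800 lowest values. With fractional counts too few of these fell within 0.1 of whole reads for a count test. Intervals for counting error were not computed for this reason. Levels per kilobase used the exons annotated by Ensembl in WBcel235. No sequences were read.

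Same-numbered libraries deviated together in the auxin and ethanol groups (r of 0.121 to 0.624 at 16 h and 0.274 to 0.664 at 88 h) and in wild-type nuclei and worms (0.113 to 0.138), so these were taken as pairs from the data, the labels giving only the number. Control replicate 2 and depletion replicate 3 also reached 0.182 at 16 h and 0.421 at 88 h, above some same-numbered values. The pairing is therefore uncertain, and the main fits held no term for it. In *daf-2* nuclei and worms r was 0.0729 to 0.0966, which did not reach the limit of 0.1 used. The 10 genes, the other gene lists and the rules for naming genes were chosen with earlier results of these data known. The genes named outside the 10 came from those lists or from the 5 highest correlations in each table. Alternatives were other pseudocounts, scalings and filters, no trend, other libraries in the fit, blocks for the replicate number or pair, and leaving out each library.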

Additional observations from a re-analysis of the deposited data

How the results depend on the processing

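Of 1510 values of single filament genes under the alternatives, 1432 were counted as kept, 55 no longer passed the threshold, 9 passed it newly and 14 reversed. The 1432 include 108 that changed sign without passing the threshold in either fit and by less than 1 SE. In all, 122 values changed sign. Between nuclei and worms of the wild type, *lev-11* reversed to -0.81 under quantile scaling and -1.55 with library sums, and *myo-2* to -1.76 with library sums and -0.39 without wild-type worm replicate 2 (-0.39 to 0.61 with 1 library left out). In *daf-2(e1370)*, *lev-11* reversed to -0.15 and -0.84 under those scalings, and the count of higher genes went from 2 to 1 with quantile scaling and 0 with library sums. Between genotypes in worms, *unc-27*, *mup-2* and *mlc-1* turned to 0.36, 0.19 and 0.10 with library sums and *myo-3* to -0.052 without wild-type worm replicate 1 (-0.052 to 0.61). The count of 2 lower genes there was 1 with a pseudocount of 2 CPM, with quantile scaling, without trend and with all 12 libraries, and 0 to 2 with 1 library left out. For auxin at 88 h, *lev-11* turned to 0.076 without control replicate 1 (-0.37 to 0.076), and *unc-15*, *mup-2* and *act-4* to 0.14, 0.044 and 0.14 without depletion replicate 3 (from -0.55, -0.36 and -0.23). For the controls, 7 higher genes became 2 without trend, 0 in a fit of these 2 groups alone and 0 to 6 with 1 library left out. The cause was not tested.

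With the replicate number as a block, 8 genes were higher in the 88 h controls (*myo-3* added, limma adjusted p = 0.0386), although same-numbered controls are not pairs by the rule used (r of 0.0512 to 0.407). The block for pairs or for the number changed no other count of filament genes, which stayed at 7 lower, at 6 lower and 2 higher, and at 2 lower.

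Over all genes, the controls had 289 lower and 961 higher, against 1283 and 1250 with quantile scaling, 1542 and 899 with library sums, 836 and 2328 with the number block, 108 and 373 without trend, 438 and 1620 with a pseudocount of 2 CPM, and 0 and 0 with the 2 groups alone. With library sums, 8596 were lower and 399 higher in wild-type nuclei, 9503 and 789 in *daf-2* nuclei, and 1041 and 1960 in *daf-2* worms against wild-type worms. Between nuclei of the 2 genotypes 341 were lower and 183 higher, but 0 with the number block or without any 1 *daf-2* nuclei library. Low read numbers limit *myo-1* and *myo-2* in nuclei.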

Other observations

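Of the filament genes of body wall muscle, those with the most intron, *lev-11* and *act-4*, had the least negative or positive differences between nuclei and worms on the deposited scale; *lev-11* was negative with library sums. With all genes placed in 4 equal groups by intron share, *lev-11* (76.0%) fell in the highest group and *act-4* (57.8%) in the next. Introns make up 13.1% of *myo-2*, which was not lower in nuclei on the deposited scale, and 48.1% of *unc-15*, which was. Among other muscle genes the order was not that of intron share. *dim-1* (67.98% intron) and *unc-95* (66.02%) were lower in nuclei in both genotypes, whereas *ttn-1* (31.4%) was higher in both on the deposited scale. Over all genes placed in 4 equal groups by intron share, the median log2 difference of nuclei minus worms on the deposited scale was -0.48, -0.53, -0.40 and 0.01 from the lowest to the highest share in the wild type, and -0.69, -0.90, -0.78 and -0.17 in *daf-2(e1370)*. These are descriptions over genes, which are not independent replicates, and whether intron content bears on the filament genes was not tested.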
